A study of Mus musculus with 6 samples.

Results

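The integrins that bind the tripeptide arginine-glycine-aspartate (RGD) were followed through 3 kinds of mouse lung sample. Their 8 subunit genes are Itgav, Itga5 and Itga8, which encode alpha chains, and Itgb1, Itgb3, Itgb5, Itgb6 and Itgb8, which encode beta chains. The members were all probes whose transcript accession RefSeq assigns to one of these symbols, which gave 11 of the 56605 non-control probes and 8 of the 22911 named genes. Itgb1, Itgb3 and Itgb6 had 2 probes each and the other 5 genes had 1. Myofibroblasts came from the lungs of bleomycin-treated male mice and were sorted as CD49e+ Sca1- Lin- cells. Steady-state fibroblasts came from untreated male mice and were sorted as CD140a+ Lin- cells, and whole-lung homogenates of untreated male mice served as controls. Each group had 2 arrays, and the series describes 50000 cells per set. Strain, age, bleomycin dose and time after bleomycin are not given in the sources used here. Myofibroblasts and fibroblasts differed in both the gate and the treatment, so these cannot be told apart in their comparison. Myofibroblasts and homogenates differed in both the sorting and the treatment, which cannot be told apart there either. The labels do not say whether the arrays of a group came from separate mice, so a p-value here covers the variation among these arrays, part or all of which may be technical.

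An integrin is a pair of one alpha and one beta chain that spans the cell membrane and ties extracellular matrix to the actin cytoskeleton. The alpha v chain pairs with the beta 1, beta 3, beta 5, beta 6 or beta 8 chain, whereas alpha 5 and alpha 8 pair with beta 1, and all of these pairs recognise RGD in proteins such as fibronectin, vitronectin, osteopontin and nephronectin. Several alpha v pairs also bind the RGD of the latency-associated peptide that holds TGF-beta inactive, and in lung fibrosis they are studied as activators of this growth factor.

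Among genes measured in both sorted populations, Itga5 and Itgb5 were higher in myofibroblasts and Itga8 was higher in steady-state fibroblasts. Itgav, the shared alpha chain of the TGF-beta-activating pairs, and the brighter probes of Itgb1 and Itgb3 did not pass the test between these populations. The other probes of Itgb1 (2.43) and Itgb3 (1.49) were called higher in myofibroblasts. Counts of called genes take the brightest probe of each gene. Of 7 genes tested, 3 were called at an adjusted p under 0.05 (limma, Benjamini-Hochberg over all genes tested), beside 18.6% of the 16008 genes tested. Of the 3, 2 were higher in myofibroblasts (9.83% of all genes tested) and 1 was lower (8.73%). Without Itga5, whose protein was the sort antigen, 2 of 6 were called. These were Itgb5 and Itga8, and the study itself put Itga8 forward as a fibroblast marker, so its direction is not independent evidence. Against homogenates, 2 of 7 genes were called in fibroblasts, both higher, beside 20.1% of all genes in either direction, 8.19% higher and 11.9% lower. They were again Itgb5 and Itga8. In myofibroblasts 6 of 8 were called against homogenates, beside 27.2% of all genes, with 5 higher (12.1% of all) and 1 lower (15.1%); without Itga5 it was 5 of 7. Of these 6, 4 were well above background on every array of both groups; Itgb6 and Itgb8 were so in only 1 of the groups and passed the filter on dim probes through it, so the filter set their direction. The median log2 difference over the members tested was 0.14 between the sorted populations (-0.06 over all genes), 0.59 for fibroblasts against homogenates (0.03) and 1.72 for myofibroblasts against homogenates (-0.01). The last 2 comparisons share the homogenate arrays. Leaving out 1 array at a time gave 1 to 4 called members between the sorted populations, with 1 without myofibroblast replicate 2, and 1 to 4 for fibroblasts against homogenates, with 1 without either homogenate array and 4 without either fibroblast array. The 4 without fibroblast replicate 1 include Itgb6, read on a dim array. For myofibroblasts against homogenates it gave 2 to 6, with 2 without either myofibroblast or either homogenate array.

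The 250 bases before the annotated start are shown for the 3 genes called between the sorted populations, since these promoters belong to members that differed in opposite directions. They were read from RefSeq (GRCm38.p6), 5′ to 3′ on each gene's strand, at chr15:103366792-103367041 (minus strand) for Itga5, chr2:12301945-12302194 (minus strand) for Itga8 and chr16:33829415-33829664 (plus strand) for Itgb5. Itga5 itself lies at chr15:103344286-103366791, Itgb5 at chr16:33829665-33949338 and Itga8 at chr2:12106632-12301985, so the end of the Itga8 window nearest its start falls within the annotated gene. Capitals mark GC boxes (GGGCGG on either strand), the letters bound by Sp1-type factors.
Itga5: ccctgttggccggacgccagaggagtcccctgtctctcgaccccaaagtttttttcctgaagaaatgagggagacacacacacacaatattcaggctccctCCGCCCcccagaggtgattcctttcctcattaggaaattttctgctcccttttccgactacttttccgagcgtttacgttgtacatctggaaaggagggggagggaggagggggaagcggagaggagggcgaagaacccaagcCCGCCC
Itga8: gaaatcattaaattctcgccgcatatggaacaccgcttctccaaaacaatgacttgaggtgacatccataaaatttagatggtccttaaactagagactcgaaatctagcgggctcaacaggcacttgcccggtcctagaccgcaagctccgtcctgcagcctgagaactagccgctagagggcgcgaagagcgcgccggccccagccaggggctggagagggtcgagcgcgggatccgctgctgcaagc
Itgb5: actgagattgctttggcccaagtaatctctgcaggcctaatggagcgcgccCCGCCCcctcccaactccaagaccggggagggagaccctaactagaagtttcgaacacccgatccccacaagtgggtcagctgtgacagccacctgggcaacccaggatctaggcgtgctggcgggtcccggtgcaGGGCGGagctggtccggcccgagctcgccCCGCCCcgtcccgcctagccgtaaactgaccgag
Itga5 held 2 GC boxes, Itgb5 held 3 and Itga8 held 0, and 32.7% of 32851 mouse windows of this length held at least 1. A match to the AP-1 letters TGANTCA was held by 6.75% of windows. Matches to the letters GGAATG of TEAD factors were held by 12.6%, to the letters TATAAA by 12.4% and to the CArG box by 1.47%. None of these 4 motifs lay in the 3 windows on either strand, and no 2 matches overlapped. GC content was 55.6% for Itga5, 56.4% for Itga8 and 65.2% for Itgb5, beside a median of 52.4% over all windows. Of the 8 members 7 were listed, Itgb3 being the one that was not, and Itgb6 had 2 windows. Of the other windows, that of Itgb1 held 1 GC box and 1 TEAD match and 1 of the 2 of Itgb6 held a CArG match. These are matches of letters and were not tested as binding sites.

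All 6 arrays were on 1 slide, and 65.5% to 73.4% of spots were well above background, the scanner software's call that a spot is brighter than its surroundings. Sorted cells and homogenates occupied different rows of that slide, so the row and the sort cannot be told apart. The fibroblast arrays agreed least: 23.5% of genes differed by over 2-fold between them, against 7.85% for myofibroblasts and 2.83% for homogenates, and the SD of the log2 difference was 0.88, 0.58 and 0.39. Values below are relative signals, that is, the signal divided by the array's 75th percentile, and are given for replicates 1 and 2 in that order. Differences are on the log2 scale with their standard error and n = 2 per group. Probes differ in brightness for the same amount of RNA, so levels are compared between samples of 1 probe and never between probes.

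**Figure D1:**
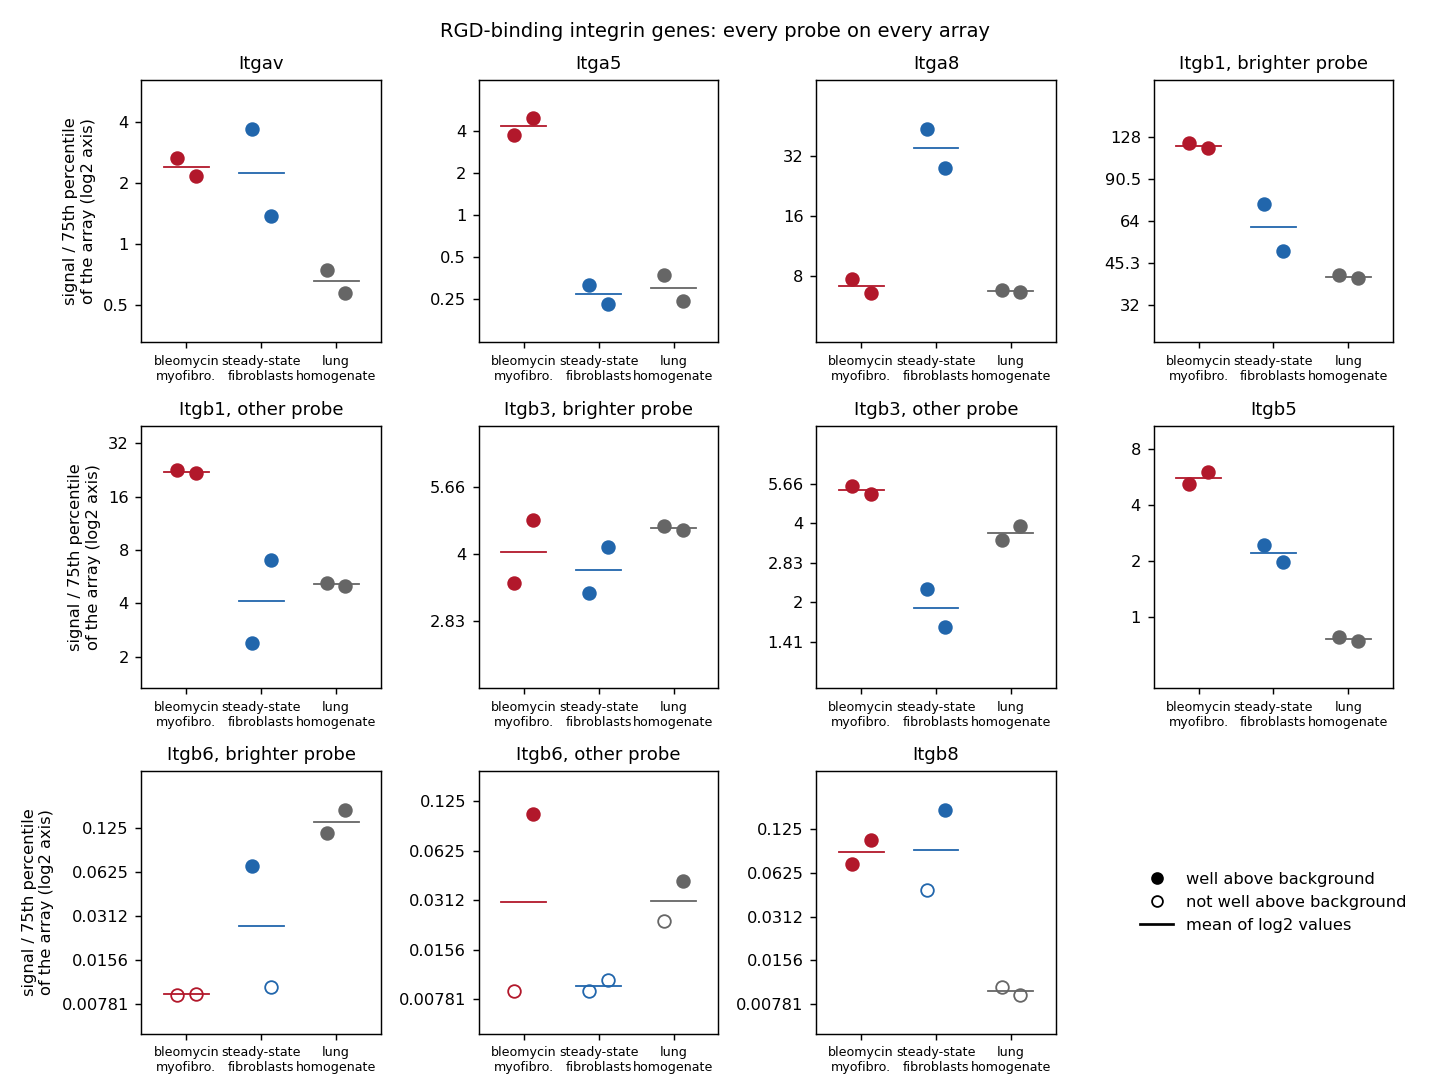
Relative signal (signal divided by the array's 75th percentile, log2 axis, a separate scale in each panel) of the 11 probes of RGD-binding integrin genes on each of the 6 arrays, with a line at each group's mean of log2 values and open circles for signals not well above background. Itga5 stands apart in myofibroblasts, at 3.74 and 5.01, and Itga8 in fibroblasts, at 43.9 and 27.9, while the 2 probes of Itgb3 show different patterns.

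Itgav encodes alpha v, the partner of all 5 beta chains followed here. Its relative signal was 2.66 and 2.17 in myofibroblasts, 3.68 and 1.37 in fibroblasts and 0.740 and 0.574 in homogenates. The 2 fibroblast arrays lay above and below both myofibroblast arrays, and all sorted samples were above both homogenates. The difference between myofibroblasts and fibroblasts was 0.10 ± 0.50 (95% interval -1.14 to 1.33, limma adjusted p = 0.903), an interval that holds more than a doubling in either direction. Itgav was 3.68-fold higher in myofibroblasts than in homogenates (1.88 ± 0.50, limma adjusted p = 0.0431). Against homogenates the fibroblasts stood at 1.78 ± 0.50 and did not pass (limma adjusted p = 0.0615). The myofibroblast call ended without any 1 myofibroblast or homogenate array (adjusted p up to 0.210), and the fibroblast difference passed without fibroblast replicate 2 (2.50, adjusted p = 0.00872). In a homogenate, fewer cells of a type and less RNA per cell cannot be told apart.

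Itga5 encodes alpha 5, the fibronectin receptor chain known as CD49e, on which the myofibroblasts were sorted. It therefore checks the gate and is not a finding about the cells. Its relative signal was 3.74 and 5.01 in myofibroblasts, 0.316 and 0.228 in fibroblasts and 0.369 and 0.241 in homogenates. Both myofibroblast arrays were far above all 4 others, and fibroblasts and homogenates overlapped. The gene was 16.1-fold higher in myofibroblasts than in fibroblasts (4.01 ± 0.35, limma adjusted p = 0.00258) and 14.5-fold higher than in homogenates (3.86 ± 0.35, limma adjusted p = 0.00125). The fibroblast population, which was not selected on CD49e, differed from homogenates by -0.15 ± 0.35 (95% interval -1.02 to 0.72, limma adjusted p = 0.804).

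The genes of the other sort antigens followed the gates. Pdgfra, which encodes CD140a, had a relative signal of 9.66 and 10.2 in myofibroblasts, 73.5 and 35.1 in fibroblasts and 7.45 and 7.16 in homogenates. Fibroblasts, gated on this antigen, were above all other arrays, and the myofibroblasts stood at -2.36 ± 0.39 against them (limma adjusted p = 0.0156). For Ly6a, the gene of Sca-1, the relative signal was 3.69 and 4.28 in myofibroblasts, 12.03 and 19.2 in fibroblasts and 24.1 and 21.6 in homogenates, and the difference was -1.94 ± 0.31 between the sorted populations (limma adjusted p = 0.0145). Both calls ended when either myofibroblast array was left out (highest adjusted p 0.0803 for Pdgfra and 0.0747 for Ly6a).

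Itga8 encodes alpha 8, a chain of mesenchymal cells that binds nephronectin, and the study itself put it forward as a fibroblast marker, so its direction here is not independent evidence. Its relative signal was 7.69 and 6.54 in myofibroblasts, 43.9 and 27.9 in fibroblasts and 6.77 and 6.61 in homogenates. Both fibroblast arrays were above the other 4, which overlapped. Itga8 stood at -2.30 ± 0.30 in myofibroblasts against fibroblasts (95% interval -3.06 to -1.55, limma adjusted p = 0.00821) and was 5.23-fold higher in fibroblasts than in homogenates (2.39 ± 0.31, limma adjusted p = 0.0047). Between myofibroblasts and homogenates the difference was 0.08 ± 0.31 (95% interval -0.68 to 0.85, limma adjusted p = 0.857). Without myofibroblast replicate 2 the first of these calls ended (-2.19, adjusted p = 0.0561).

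Itgb1 encodes beta 1, the partner of alpha v, alpha 5 and alpha 8 and of many alpha chains that do not bind RGD. By its brighter probe the relative signal was 121 and 117 in myofibroblasts, 73.8 and 49.95 in fibroblasts and 40.9 and 39.9 in homogenates. The 3 groups did not overlap. Itgb1 was 2.95-fold higher in myofibroblasts than in homogenates (1.56 ± 0.28, limma adjusted p = 0.0132). The difference between the sorted populations, 0.97 ± 0.28 (95% interval 0.28 to 1.67), did not pass over all genes (limma adjusted p = 0.0642), and neither did that between fibroblasts and homogenates, 0.59 ± 0.28 (limma adjusted p = 0.221). By the other probe the relative signal was 22.5 and 21.6 in myofibroblasts, 2.39 and 7.05 in fibroblasts and 5.23 and 5.01 in homogenates, so fibroblasts lay on both sides of the homogenates. That probe was called between the sorted populations (2.43 ± 0.52, 5.38-fold, limma adjusted p = 0.0356) and against homogenates in myofibroblasts (2.11 ± 0.53, limma adjusted p = 0.0432). Both probes thus placed myofibroblasts above fibroblasts on all arrays, and 1 of the 2 passed. The brighter probe's call against homogenates ended without any 1 myofibroblast or homogenate array (adjusted p up to 0.108). Between the sorted populations that probe passed without fibroblast replicate 1 (adjusted p = 0.0263), with normexp correction (0.0361) and with a variance trend (0.0214), the mean of both probes passed as well (1.70, adjusted p = 0.0107), and between fibroblasts and homogenates it passed without fibroblast replicate 2 (0.87, adjusted p = 0.035).

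Itgb3 encodes beta 3, which pairs with alpha v in mesenchymal and endothelial cells and with alpha IIb in platelets. By its brighter probe the relative signal was 3.44 and 4.77 in myofibroblasts, 3.27 and 4.15 in fibroblasts and 4.63 and 4.54 in homogenates. Myofibroblasts overlapped both other groups, and no comparison passed (0.14 ± 0.28, -0.31 ± 0.29 and -0.18 ± 0.29 for myofibroblasts against fibroblasts, fibroblasts against homogenates and myofibroblasts against homogenates, limma adjusted p = 0.751, 0.502 and 0.673). By the other probe, of the same transcript accession, the relative signal was 5.53 and 5.17 in myofibroblasts, 2.25 and 1.61 in fibroblasts and 3.46 and 3.91 in homogenates, and no group overlapped another. This probe was 2.81-fold higher in myofibroblasts than in fibroblasts (1.49 ± 0.28, limma adjusted p = 0.0248) and did not pass in the other comparisons (-0.95 ± 0.28, limma adjusted p = 0.0865, and 0.54 ± 0.28, limma adjusted p = 0.209). The probes of Itgb3 therefore disagree on the call between the sorted populations, and the deposited values do not say which reports the transcript. The 6 platelet and megakaryocyte genes had a summed relative signal of 2.34 and 2.34 in myofibroblasts, 1.65 and 2.36 in fibroblasts and 3.68 and 3.36 in homogenates, and Gp9 and Gp1ba were not well above background on any array. Of 4 tested against homogenates, 2 were called lower in each sorted population, beside 20.1% of all genes in fibroblasts and 27.2% in myofibroblasts. The median differences were -2.46 and -2.18. Ppbp was well above background in homogenates only, so the filter set its direction. The part of platelets in the Itgb3 signal was not tested.

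Itgb5 encodes beta 5, which pairs with alpha v alone and binds vitronectin and latent TGF-beta. Its relative signal was 5.17 and 5.99 in myofibroblasts, 2.43 and 1.99 in fibroblasts and 0.783 and 0.744 in homogenates. The groups were in that order on every array, with no overlap, and Itgb5 was the one member called in all 3 comparisons. It was 2.53-fold higher in myofibroblasts than in fibroblasts (1.34 ± 0.25, 95% interval 0.72 to 1.96, limma adjusted p = 0.0213). It was 2.88-fold higher in fibroblasts than in homogenates (1.53 ± 0.25, limma adjusted p = 0.0109) and 7.29-fold higher in myofibroblasts than in homogenates (2.87 ± 0.25, limma adjusted p = 0.00114). The call between the sorted populations did not survive the loss of either myofibroblast array (adjusted p up to 0.109) and ended without either homogenate array, with only the 4 arrays compared in the fit (0.0758 in both cases), and with array weights per group (0.0614). That between fibroblasts and homogenates ended without either homogenate array (adjusted p up to 0.107).

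Itgb6 encodes beta 6, a chain of epithelial cells that pairs with alpha v and activates TGF-beta in the alveolar epithelium. Its brighter probe gave 0.00902 and 0.00913 in myofibroblasts, 0.0686 and 0.0102 in fibroblasts and 0.116 and 0.166 in homogenates. Both homogenates and 1 of the 2 fibroblast arrays were well above background, and neither myofibroblast array was. Against homogenates, Itgb6 was at least 3.44-fold lower in myofibroblasts. This bound sets a dim array at the lowest signal well above background on it. The test used the signals without that bound (-3.94 ± 0.86, limma adjusted p = 0.0244). Fibroblasts stood at -2.39 ± 0.86 against homogenates and did not pass (limma adjusted p = 0.121), with 1 of the 2 fibroblast arrays dim. The gene was not tested between the sorted populations. Against homogenates it could not be tested where all 4 arrays had to be well above background. The myofibroblast call ended without any 1 myofibroblast or homogenate array (adjusted p up to 0.129), with normexp background correction (adjusted p = 0.0597) and with the mean of a gene's probes (0.0865). The other probe gave 0.00876 and 0.105 in myofibroblasts, 0.00873 and 0.0102 in fibroblasts and 0.0234 and 0.0410 in homogenates and was well above background on 1 myofibroblast and 1 homogenate array, so it was tested in no comparison. The 10 epithelial markers were all called lower than in homogenates in both sorted populations, and between these 2 of 7 tested were called, both lower in myofibroblasts. They had a summed relative signal of 14.7 and 20.6 in myofibroblasts, 125 and 74.7 in fibroblasts and 868 and 857 in homogenates, with Cdh1 not well above background on any sorted array. The secretoglobin gene Scgb1a1 made up most of that sum, at 10.4 and 15.9 in myofibroblasts, 118 and 69.0 in fibroblasts and 614 and 602 in homogenates. The part of epithelial RNA in the Itgb6 values was not tested.

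Itgb8 encodes beta 8, which pairs with alpha v and presents active TGF-beta at the cell surface. Its probe gave 0.0716 and 0.104 in myofibroblasts, 0.0477 and 0.168 in fibroblasts and 0.0103 and 0.00907 in homogenates. Both myofibroblast arrays and 1 of the 2 fibroblast arrays were well above background, and neither homogenate was. The sorted populations overlapped, with a difference of -0.05 ± 0.61 (95% interval -1.55 to 1.45, limma adjusted p = 0.959). Itgb8 was at least 2.22-fold higher in myofibroblasts than in homogenates. The test used the signals without that bound (3.16 ± 0.61, limma adjusted p = 0.0164). Between fibroblasts and homogenates it was not tested. Where all 4 arrays had to be well above background, no comparison of Itgb8 could be tested. The myofibroblast call ended without any 1 myofibroblast or homogenate array (adjusted p up to 0.0971) and with normexp background correction (0.0682).

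**Figure D2:**
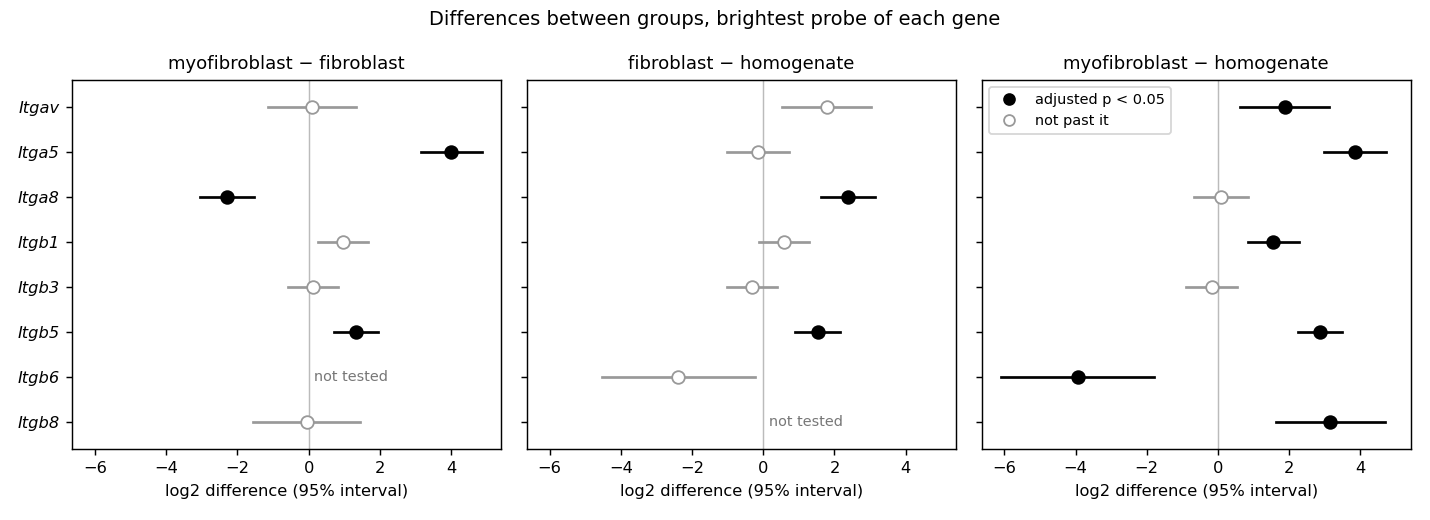
Log2 differences of the 8 genes by their brightest probe in the 3 comparisons, with 95% intervals from limma; filled points passed an adjusted p of 0.05. Between the sorted populations Itga5 (4.01) and Itgb5 (1.34) lie above 0 and Itga8 (-2.30) below, and against homogenates Itgb6 (-3.94 in myofibroblasts) is the one called gene below 0. The plotted values of Itgb6 and Itgb8 rest in part on arrays not well above background.

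Ordered by level, Itgb5 ran from myofibroblasts through fibroblasts to homogenates, with each neighbouring pair past the test. By the brightest probe of each, Itgav, Itgb1 and Itgb8 were highest in the sorted cells and lowest in homogenates. Between the sorted populations none of the 3 passed by that probe. Fibroblasts against homogenates did not pass for Itgav or Itgb1 and were not tested for Itgb8. The other Itgb1 probe was lowest in fibroblasts. Itga5 was high in myofibroblasts and Itga8 in fibroblasts, and for each the 2 lower groups overlapped. Itgb3 by its brighter probe had no pair of groups past the test. Itgb6 was highest in homogenates. Of the 11 probes 8 were well above background on all 6 arrays, and these belonged to 6 of the 8 genes. Of these 8 probes, Itgav differed 2.68-fold and the other Itgb1 probe 2.96-fold between the fibroblast arrays, and the Itgb6 and Itgb8 probes were each dim on at least 1 array.

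Genes whose profile over the 6 arrays lay nearest to each member were found among 15736 genes, by the root mean square difference of log2 values after centring each gene on its own mean. For Itgav they were Lhfp (0.11) and Arhgap24 (0.13), and for Itga8 they were Angpt1 (0.12) and Gpc3 (0.14). Itga5 was nearest to Uchl1 (0.21) and Nrg1 (0.22). Itgb1, by its brighter probe, was nearest to Vim (0.04), the gene of the intermediate filament vimentin, and Sec61g (0.08). Itgb3 was nearest to Stx17 (0.05) and Tspo2 (0.06) and Itgb5 to Mxra7 (0.14) and Plpp5 (0.15). The dim members had more distant neighbours, Ccdc65 (0.25) and Mpped2 (0.26) for Itgb6 and Adgrd1 (0.27) and Islr (0.33) for Itgb8. With 6 arrays in 3 groups these distances describe the arrays only.

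Genes of RGD ligands included several that were far higher in myofibroblasts. Of 16, 13 were tested between the sorted populations, and 6 were higher and 0 lower (limma, adjusted over all genes tested). That was 46.2% of those tested, beside 18.6% of all genes tested, with 9.83% higher and 8.73% lower. Spp1 and L1cam passed the filter on dim probes through myofibroblasts only, so the filter set their direction. The median difference of 1.52 was that of a gene dim on both fibroblast arrays, which did not pass. Spp1, which encodes osteopontin, a ligand of alpha v pairs, gave 144 and 117 in myofibroblasts, and was not well above background in either fibroblast array (0.00884 and 0.0102). It was at least 3030-fold higher in myofibroblasts. The test used the signals without that bound (13.7 ± 0.30, limma adjusted p = 0.000163). Tnc, the gene of tenascin-C, rose from 0.359 and 0.390 in fibroblasts to 47.1 and 49.1 in myofibroblasts, a difference of 7.0 ± 0.28. Fn1, which encodes fibronectin, the main ligand of the alpha 5 chain, gave 317 and 311 in myofibroblasts, 110 and 55.9 in fibroblasts and 26.6 and 25.5 in homogenates. It was 2.0 ± 0.37 higher in myofibroblasts than in fibroblasts (limma adjusted p = 0.0206), and 2 other probes gave 3.78 and 4.10, both called. By its brightest probe the adhesion molecule gene L1cam was at least 2.05-fold higher in myofibroblasts than in fibroblasts, where neither array was well above background. Its myofibroblast signals were low, at 0.0845 and 0.0915, and its other probes were too dim to be tested in this comparison. Against homogenates L1cam was lower in myofibroblasts (-3.64 ± 0.28, limma adjusted p = 0.000772). Leaving out 1 array gave 3 to 7 called ligand genes, fewer without any 1 myofibroblast or homogenate array. Without such an array the brightest probe of Fn1 lost its call (adjusted p up to 0.0996), as it did with only the 4 arrays compared (0.0596), and L1cam lost its call with normexp correction (0.0995) and with the mean of its probes (0.069).

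Against homogenates the ligand genes went both ways. In fibroblasts 6 of 14 were higher and 5 lower (median 0.68), and in myofibroblasts 7 of 14 were higher and 3 lower (median 1.01). These were 78.6% and 71.4% of those tested, beside 20.1% and 27.2% of all genes tested. Most of the genes lower in fibroblasts were well above background in homogenates only, so the filter set their direction. The same held for a gene lower in myofibroblasts. Spp1 was at least 68.6-fold lower in fibroblasts than in homogenates. Vwf, the von Willebrand factor of endothelium and platelets, stood at -6.81 ± 0.40 in fibroblasts and -7.66 ± 0.40 in myofibroblasts against homogenates. Of the 8 endothelial markers, 7 were called lower than in homogenates in fibroblasts and all 8 in myofibroblasts. The 8 genes had a summed relative signal of 0.239 and 0.364 in myofibroblasts, 1.56 and 1.36 in fibroblasts and 58.9 and 55.5 in homogenates. Tek made up most of the fibroblast sums, at 1.37 and 1.07. Between the sorted populations 4 of the markers were tested, with 1 called higher and 1 lower in myofibroblasts. The part of endothelial cells in the lower calls of ligand genes was not tested.

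Among genes of latent TGF-beta activation and response, ligands and storage proteins accounted for most calls. All 16 were tested between the sorted populations, and 5 were higher and 2 lower in myofibroblasts (median 0.25). That was 43.8% of the list, beside 18.6% of all genes tested. Ltbp2, a latent TGF-beta binding protein family member, gave 85.2 and 103 in myofibroblasts and 3.81 and 1.78 in fibroblasts (5.17 ± 0.40, limma adjusted p = 0.00206). The ligand gene Tgfb1 stood at 2.94 ± 0.39, with another probe at 4.51. Tgfbr3, which encodes the co-receptor betaglycan, was lower at -2.87 ± 0.30. Tgfbr1 and Tgfbr2, the signalling receptors, read -0.29 ± 0.35 and -0.23 ± 0.39 and did not pass (limma adjusted p = 0.582 and 0.691; these 2 were named after their values were seen). The count ran from 4 to 9 when 1 array was left out, with 4 without myofibroblast replicate 2, where Tgfb1 lost its call (adjusted p = 0.0544). Against homogenates, 8 of 16 were higher and 2 lower in fibroblasts (median 1.49), and 8 higher and 1 lower in myofibroblasts (median 1.41). These were 62.5% and 56.2% of the list, beside 20.1% and 27.2% of all genes tested. In fibroblasts the ligand gene Tgfb3 was higher at 2.64 ± 0.27. Nrros, which anchors latent TGF-beta on macrophages and microglia, was lower than in homogenates at -5.02 ± 0.49 in fibroblasts and -7.22 ± 0.49 in myofibroblasts. Without fibroblast replicate 1 or 2 the fibroblast value of Nrros ran between -5.74 and -4.30, and without either homogenate array the fibroblast count fell to as few as 3.

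Cytoplasmic partners, the proteins that link integrin tails to actin and to kinases, were mixed. Of 24, 20 were tested between the sorted populations, with 3 higher and 3 lower (median 0.70). That was 30% of those tested, beside 18.6% of all genes tested. Ptk2, the gene of focal adhesion kinase, was 1.81 ± 0.30 higher in myofibroblasts, and the adaptor gene Bcar1 2.91 ± 0.66, although another Bcar1 probe read 0.56 and was not called. Parva, which encodes parvin alpha, was 1.42 ± 0.33 higher, with another probe at 0.31 that was not called. Dab2, an endocytic adaptor of integrin tails, was lower at -1.54 ± 0.24, and of 2 other probes 1 was called (-1.76) and 1 was not (-0.90). Tln1, the talin gene, read 0.92 ± 0.35 and Ilk, the integrin-linked kinase gene, 1.75 ± 0.50, and neither passed (limma adjusted p = 0.122 and 0.0618; both were named after their values were seen). The count of called partners changed widely with the array left out, as did the count over all genes. Both counts also fell without a homogenate array. Such an array does not enter this difference but enters its standard error, since the fit pooled the variance over all 3 groups. The cause of the changes with the other arrays was not tested. Without any 1 myofibroblast or homogenate array Bcar1, Parva and Dab2 lost their calls (adjusted p up to 0.166, 0.160 and 0.077), and without either myofibroblast array Ptk2 did (0.079). With only the 4 arrays compared, Bcar1, Parva and Dab2 lost their calls too (0.0781, 0.0956 and 0.0523), and with array weights Parva, Dab2 and Ptk2 did (0.0757, 0.0510 and 0.0696). With no filter on dim probes the calls of Bcar1 (0.0668) and Parva (0.0644) ended, and that of Parva also in the authors' table (0.0694), with the mean of its probes (0.0562) and with the replicate block (0.0501). The count of called partners was highest without fibroblast replicate 2. Against homogenates 2 of 23 were higher and 5 lower in fibroblasts (median -0.09), and 4 higher and 5 lower in myofibroblasts (median 0.79). These were 30.4% and 39.1% of those tested, beside 20.1% and 27.2% of all genes tested. The lower genes included partners of blood cells: Fermt3 (kindlin-3) was at least 9.12-fold lower in fibroblasts, and Parvg (parvin gamma) at least 7.38-fold lower in fibroblasts and at least 7.83-fold in myofibroblasts. By its brightest probe Parvb, which encodes parvin beta, was at least 15.4-fold lower in myofibroblasts than in homogenates. Another Parvb probe read -1.64, a smaller difference, and was also called (limma adjusted p = 0.0496). By the brightest probe of each, Fermt3, Parvg and Parvb were well above background in homogenates only, so the filter set their direction.

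**Figure D3:**
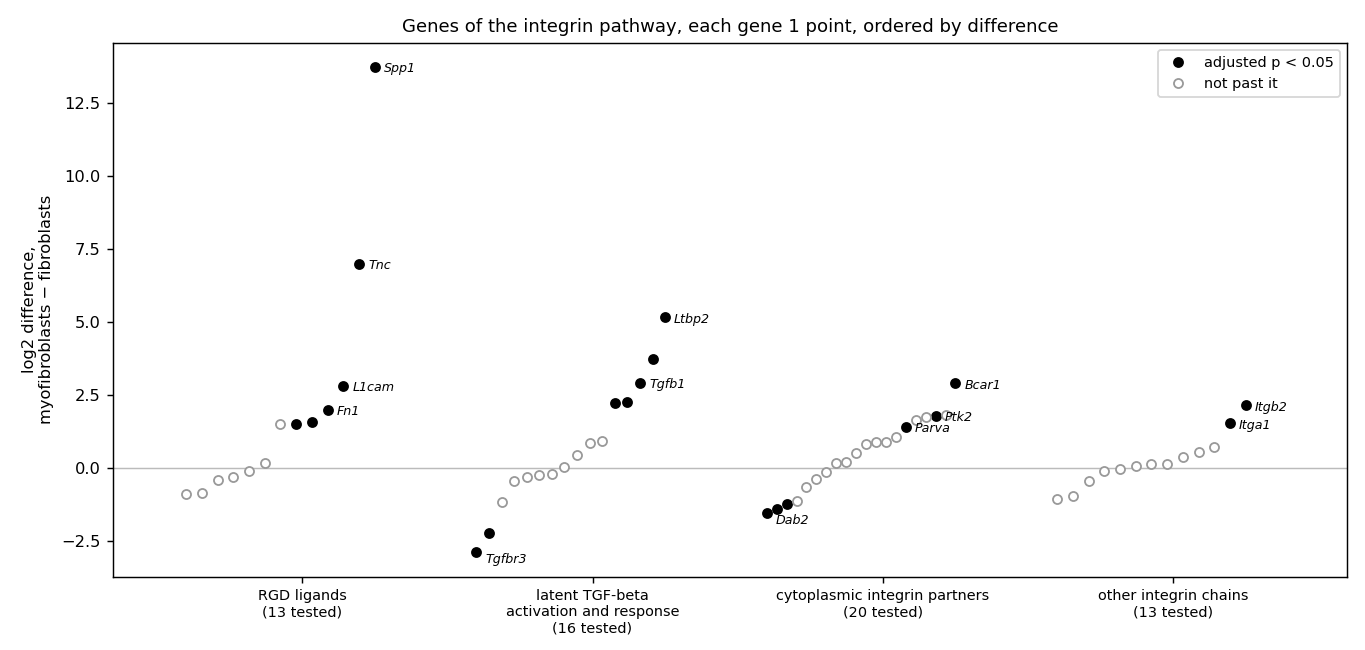
Log2 differences between myofibroblasts and fibroblasts for each tested gene of the 4 pathway lists, ordered within a list; filled points passed an adjusted p of 0.05 and the named ones are described in the text. Spp1 and L1cam were not well above background in fibroblasts, so their plotted differences rest on dim arrays, and their bounds are at least 3030-fold and 2.05-fold.

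The 17 other integrin chains, which need not bind RGD, were called mainly against homogenates. Between the sorted populations 2 of 13 tested were higher and 0 lower (15.4%, below the 18.6% of all genes tested, median 0.14). These were Itgb2, the leukocyte beta 2 chain, at 2.17 ± 0.44 (limma adjusted p = 0.0263), and Itga1, a collagen receptor chain, at 1.55 ± 0.37 (limma adjusted p = 0.0397), whose other probe read 0.82 and was not called. The count fell to as few as 0 when 1 array was left out. Itgb2 lost its call without any 1 array other than myofibroblast replicate 1 (adjusted p up to 0.0734) and Itga1 without any 1 array other than fibroblast replicate 2 (up to 0.167). Both calls also ended with only the 4 arrays compared (0.0671 and 0.0914) and with array weights per group (0.0872 and 0.0950). That of Itga1 ended as well with normexp correction (0.58, adjusted p = 0.0926), in the authors' table (0.0684), with no filter on dim probes (0.0693) and with the replicate block (0.0551). In fibroblasts 1 of 17 was higher and 8 lower than in homogenates (median -2.16), and in myofibroblasts 1 higher and 10 lower (median -2.41). These were 52.9% and 64.7% of those tested, beside 20.1% and 27.2% of all genes tested. By its brightest probe Itgax, a chain of dendritic cells and macrophages, was at least 99.4-fold lower in fibroblasts and 105-fold lower in myofibroblasts. Another Itgax probe read -6.76 and -6.05, both called. Itgb2 stood at -8.28 ± 0.44 in fibroblasts and -6.11 ± 0.44 in myofibroblasts. The 1 higher chain was Itga11, a collagen receptor chain of fibroblasts, named after its values were seen, at least 21-fold higher in fibroblasts and 27.3-fold in myofibroblasts. The fibroblast call of Itga11 ended with array weights per group (adjusted p = 0.052). By the brightest probe of each, Itgax was well above background in homogenates only and Itga11 in the sorted cells only, so the filter set their direction. The 8 leukocyte markers, which include Itgb2, had a summed relative signal of 21.9 and 22.0 in myofibroblasts, 20.3 and 25.8 in fibroblasts and 131 and 137 in homogenates, and Ptprc was well above background on 1 of the 4 sorted arrays. Csf1r, which encodes a macrophage growth factor receptor, made up most of the sorted sums, at 20.1 and 19.5 in myofibroblasts, 18.6 and 24.4 in fibroblasts and 20.9 and 21.9 in homogenates. The other 7 were all called lower than in homogenates in both sorted populations, and over the 8 the median difference was -5.67 in fibroblasts and -4.84 in myofibroblasts. The part of leukocytes in these differences was not tested.

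The 7 fibroblast markers did not move together between the sorted populations. All 7 fibroblast markers were well above background on every array, with a summed relative signal of 990 and 1030 in myofibroblasts, 539 and 408 in fibroblasts and 43.4 and 40.3 in homogenates. The collagen genes Col1a1 and Col1a2 made up most of the myofibroblast sums, and both were called higher there than in fibroblasts. The call was lower in myofibroblasts for Pdgfra (-2.36) and Dcn, the decorin gene (-2.34), and the median over the 7 was -0.69. Against homogenates 6 of 7 were called higher in fibroblasts and 5 of 7 in myofibroblasts. The shares called over all genes tested were 20.1% and 27.2%, and 18.6% between the sorted populations. The 5 myofibroblast markers, among them Acta2 and Postn, summed to 340 and 376 in myofibroblasts, 18.6 and 28.9 in fibroblasts and 36.04 and 37.3 in homogenates, and all 5 were called higher in myofibroblasts than in fibroblasts. The 8 smooth muscle and pericyte markers also summed higher in myofibroblasts, at 92.3 and 106 against 40.3 and 17.7, with 5 of 7 tested called higher. The 5 proliferation genes summed to 11.7 and 10.7 in myofibroblasts and 0.378 and 0.238 in fibroblasts. The part of these cells and states in the integrin differences was not tested.

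**Figure D4:**
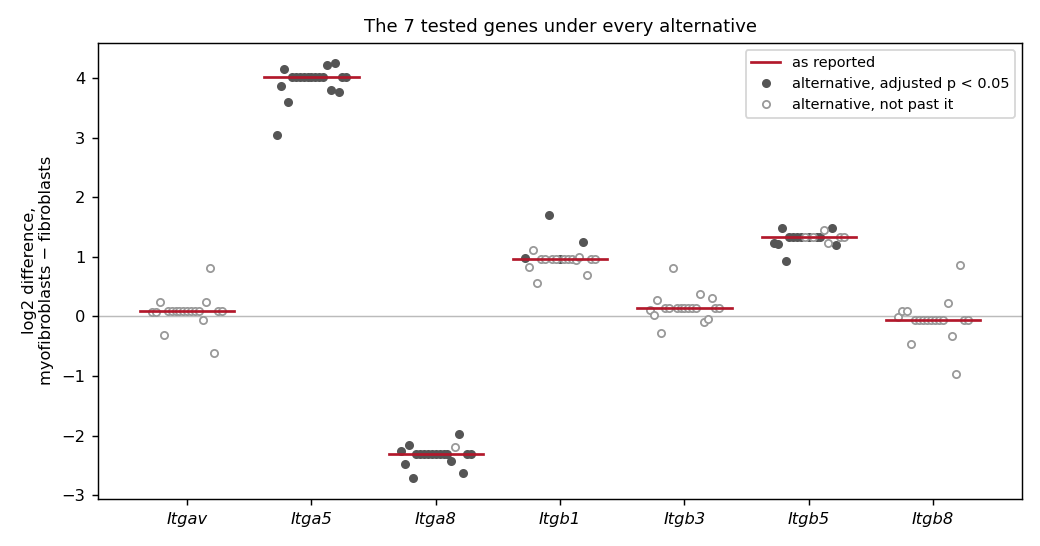
Log2 differences between myofibroblasts and fibroblasts for the 7 tested genes as reported (line) and under each other processing or left-out array (points, filled where the adjusted p was under 0.05). Itga5 kept its call in all of them, Itga8 lost it in 1, Itgb5 lost it in several and Itgb1 gained it in several, while the points of Itgav, Itgb3 and Itgb8 lie on both sides of 0.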

How the data were processed

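Gene expression was measured on 6 one-colour Agilent arrays, 2 per group, labelled with Cy3 from 5.8 ng of RNA. The authors deposited scanner intensity values made with Agilent Feature Extraction 12.0.3.1, per the submitters' processing notes, and a table of processed intensity that equalled them times 1 constant per array. The background-corrected signal was taken as log2 after dividing by the array's 75th percentile. Outlier spots were left out and spots of a probe averaged. RefSeq (GRCm38.p6) named 32994 probes through their accessions and left 23611 unnamed. The brightest probe stood for a gene, and a gene was tested where at least 1 of the groups compared had both its arrays well above background. limma 3.58.1 in R 4.3.3 was fitted to all 3 groups (3 residual degrees of freedom) with Benjamini-Hochberg adjustment, two-sided, and was tested on simulated data. The members and gene lists were chosen with earlier results of these data known. Named genes were the members, the genes of sort antigens, up to 4 called genes per list with the largest difference between the sorted populations and up to 2 in each other comparison, and 2 nearest profiles per member; 1 gene this rule picks is not reported here. Samples of the same replicate number correlated at 0.05, -0.01 and 0.02 in their deviations from group means, so the numbers were not taken to pair samples. The number of arrays limits the precision.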

Additional observations from a re-analysis of the deposited data

How the results depend on the processing

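With 2 arrays per group each left-out array leaves a lone sample, which was assumed to vary like the other groups. Apart from leaving out arrays, 14 alternatives were run on the members' comparisons, and of 304 results 285 stayed on the same side of the threshold, 14 lost a call and 5 gained one. Itgb6 and Itgb8 could not be tested where all 4 arrays had to be well above background. Those cases are not among the 304, although both genes were called in myofibroblasts against homogenates as reported. No called difference changed sign, but 11 that did not pass did, and 10 more over left-out arrays. Between the sorted populations these were Itgb8 (-0.05, then 0.10 with quantile normalization and 0.09 with median scaling) and, in the authors' table, Itgav (0.10, then -0.32) and Itgb3 (0.14, then -0.27). Itga5 in fibroblasts against homogenates (-0.15) read 0.01 with normexp, 0.03 with quantile normalization and 0.11 with median scaling. In myofibroblasts against homogenates, Itga8 (0.08) read -0.29 with quantile normalization and -0.41 in the authors' table, and Itgb3 (-0.18) read 0.23 with median scaling and 0.18 with the mean of its probes. Itga5 (both comparisons of myofibroblasts), Itga8 (fibroblasts against homogenates) and Itgb5 (myofibroblasts against homogenates) kept their calls under every alternative run, left-out arrays included, and for the calls that ended the cause was not tested. The count of called members between the sorted populations was 3 as reported, 5 with every probe by itself, and 1 to 4 over left-out arrays. For fibroblasts against homogenates it was 2, then 1 at an adjusted p under 0.01 and 1 to 4 over left-out arrays, and for myofibroblasts against homogenates 6, 2 and 2 to 6. With the replicate number as a block the counts were 3, 3 and 6, where Itgav was added for fibroblasts against homogenates (adjusted p = 0.0365). The block ended the calls of Itga1 (0.0551) and Parva (0.0501) between the sorted populations.

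Over all genes, 2971 calls between the sorted populations became 1264 with only the 4 arrays compared, 1279 with array weights, 787 at 0.01 and 1103 to 5955 over left-out arrays. For fibroblasts against homogenates 3425 became 2137 where all 4 arrays had to be well above background, 1749 at 0.01 and 1557 to 6232 over left-out arrays. For myofibroblasts against homogenates 4672 became 7390 with only the 4 arrays compared, 7885 with array weights, 2119 at 0.01 and 1859 to 7390. Scaling moved the median of all genes: median scaling by 0.14, 0.27 and 0.40 in the 3 comparisons and the authors' table by -0.41, -0.09 and -0.50, and 52.9% of calls between the sorted populations were higher in myofibroblasts as reported, 25.1% in the authors' table and 64.5% with median scaling. For myofibroblasts against homogenates these shares were 44.4%, 20.6% and 65%, and for fibroblasts against homogenates median scaling moved 40.8% to 50.8%. In that table Itgav lost its call in myofibroblasts against homogenates (1.38, adjusted p = 0.0843), as it did with no filter on dim probes (0.0645) and with every probe by itself (0.053).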
